A study of Mus musculus with 2 samples.

Results

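The S100 genes described here encode small calcium-binding proteins, and they were followed in spleen cells of tumour-bearing and control mice by single-cell RNA sequencing. The 8 members, S100a8, S100a9, S100a1, S100a4, S100a6, S100a10, S100a11 and S100a13, were taken by name from the 27998 gene rows that both libraries share. One library came from tumour-bearing PyMT mice, in which spleens of 3 mice were pooled, and the other from control wild-type FVB/n mice, in which spleens of 5 mice were pooled. PyMT mice carry the polyoma middle T oncogene and are used as a model of breast cancer. The labels give PYMT as the strain of the tumour-bearing mice, and the promoter of the transgene, the age of the mice and the stage of the tumours are not given in the sources used here. In both groups, red cells were lysed and cells positive for CD11b and Gr1 were sorted; the antibody against Gr1 is known to bind Ly6G on neutrophils and Ly6C on monocytes. No treatment is named for either group. With 1 library per group there is no replicate, so no test was run, and each difference compares these libraries rather than the conditions.

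The PyMT library held 9155 cells and 73435307 unique molecular identifiers (UMIs, which count captured transcripts), with a median of 7063 UMIs per cell, while wild type had 5491 cells with 42542700 UMIs in all and a median of 5668. Of the cell barcodes, 72 were found in both libraries. Cells were put into classes without any S100 gene. Neutrophils had at least 1% of their UMIs from Camp, Ngp and Retnlg and no UMI of Csf1r, Ccr2 or Cd79a, and they made up 42.2% of PyMT cells (3862 cells) and 58.2% of wild-type cells (3195 cells). Monocytes had at least 3 UMIs of Csf1r, Ccr2 and F13a1 and none of Cd79a (1677 PyMT and 853 wild-type cells), and B cells had at least 5 UMIs of Cd79a, Cd79b and Ms4a1 (1493 PyMT and 730 wild-type cells), although the sort was for myeloid markers. A further 1504 PyMT and 521 wild-type cells passed the neutrophil share but carried a UMI of an excluded gene and were in no class. In the neutrophil class, 14 of 14 further neutrophil markers reached 50 CPM in both libraries, against 1 of 11 monocyte markers (Ly6c2) and 1 of 11 B cell markers (Cd37). In the monocyte class, 9 of 11 further monocyte markers reached it in PyMT and 10 in wild type, and in the B cell class 11 of 11 B cell markers reached it in PyMT and 10 in wild type. Neutrophil markers were present in both the monocyte and the B cell class, at a summed 9201 CPM in PyMT and 16577 CPM in wild-type monocytes and at 10317 CPM in PyMT and 21192 CPM in wild-type B cells. Of the 14 neutrophil markers, 13 reached 50 CPM in PyMT and 12 in wild-type monocytes, and 13 in PyMT and 14 in wild-type B cells. Of 11 monocyte markers, 5 reached it in PyMT and 7 in wild-type B cells.

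S100 proteins bind calcium through paired EF-hand loops, mostly as dimers, and on binding expose a surface that takes up partner proteins such as annexins. S100a8 and S100a9 form the heterodimer calprotectin, a major cytosolic protein of neutrophils that withholds zinc and manganese from microbes and, once released, signals through Tlr4 and Ager (RAGE). The pair is widely used as a sign of myeloid suppressor cells in tumour-bearing hosts. S100a4, S100a6, S100a10, S100a11, S100a1 and S100a13 act mainly inside cells, on the cytoskeleton, on membranes and in the export of proteins without a signal peptide.

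All 8 genes lie on chromosome 3 (GRCm38, GENCODE M21), in a row of 6 and a pair further along. The row runs through S100a1 (chr3:90511034-90514392, minus strand), S100a13 (chr3:90514435-90524581, plus strand), S100a4 (chr3:90603771-90606045, plus strand), S100a6 (chr3:90612882-90624181, plus strand), S100a8 (chr3:90668978-90670035, plus strand) and S100a9 (chr3:90692632-90695721, minus strand). S100a11 (chr3:93520488-93526287, plus strand) and S100a10 (chr3:93555080-93564643, plus strand) form the pair. S100a4 overlaps a predicted gene, Gm42674, on the same strand, so its counts are uncertain. The start regions of the 3 genes that lead the neutrophil results are printed here, in the gene's own 5′ to 3′ direction. They run from 230 bases before to 20 bases from the RefSeq transcript start (GRCm38.p6). Capitals mark the letters TATAAA, those of the core of a TATA box. In S100a8 they begin at -30, and in S100a9 at +1, inside the transcribed bases. S100a8 is at chr3:90668841-90669090, S100a9 at chr3:90695702-90695951 (minus strand) and S100a6 at chr3:90612664-90612913. The fourth line gives the 104 bases between the RefSeq transcript starts of the divergent neighbours S100a1 and S100a13, at chr3:90514331-90514434, plus strand; the GENCODE gene S100a1 reaches into this stretch, up to the end given above.
S100a8: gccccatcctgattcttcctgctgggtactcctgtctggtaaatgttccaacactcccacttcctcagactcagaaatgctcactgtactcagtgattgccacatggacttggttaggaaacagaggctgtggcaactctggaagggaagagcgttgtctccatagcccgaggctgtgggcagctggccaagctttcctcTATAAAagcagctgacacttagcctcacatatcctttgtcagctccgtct
S100a9: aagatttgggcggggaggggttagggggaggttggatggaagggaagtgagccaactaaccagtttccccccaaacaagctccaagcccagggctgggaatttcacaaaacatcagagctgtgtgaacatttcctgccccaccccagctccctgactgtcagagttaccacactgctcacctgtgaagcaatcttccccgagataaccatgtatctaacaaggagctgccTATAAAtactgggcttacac
S100a6: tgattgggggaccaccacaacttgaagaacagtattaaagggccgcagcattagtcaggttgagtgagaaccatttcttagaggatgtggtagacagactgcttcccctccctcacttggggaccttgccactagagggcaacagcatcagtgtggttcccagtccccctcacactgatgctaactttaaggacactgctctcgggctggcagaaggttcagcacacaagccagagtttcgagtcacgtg
S100a1 to S100a13: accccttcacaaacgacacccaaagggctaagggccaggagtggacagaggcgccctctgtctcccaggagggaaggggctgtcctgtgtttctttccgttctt

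Of the 8 members, 7 had a promoter in the RefSeq table, S100a10 being the exception, and each was searched over 300 bases on both strands. TATAAA was found in 3 of the 7, at position -31 of S100a4, -30 of S100a8 and +1 of S100a9, against 13.6% of all 32817 promoters. TTNNGNAA, the letters of a C/EBP site, occurred at -117 in S100a8 and at -236 and -130 in S100a9 and in no other of the 7, against 40.7% of all promoters. GAGGAA, bound by PU.1, was in S100a8, S100a4 and S100a11 (28.3% of all), TGANTCA, bound by AP-1, in S100a11 alone (7.81% of all), and GGGCGG, a GC box, in S100a9 and S100a11 (35.6% of all). TTCNNNGAA, the letters of a STAT site, was in none of the 7 (8.29% of all). None of these letters was found in the start regions of S100a6, S100a1 or S100a13. No 2 matches overlapped. A match describes the letters in this window and does not show that a factor binds there.

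S100a8 and S100a9, the subunits of calprotectin, were the 2 most abundant transcripts of neutrophils in both libraries. Levels are given as CPM, UMIs scaled to the UMI total of the class; since UMIs come from 3′ ends, they do not grow with transcript length. S100a8 stood at 218637 CPM in PyMT neutrophils and 206947 CPM in wild-type neutrophils, a log2 ratio of PyMT over wild type of 0.08. S100a9 stood at 141598 CPM in PyMT neutrophils and 138358 CPM in wild-type neutrophils, a log2 ratio of 0.03. With this scaling both genes thus differed by far less than 1.5-fold, the size used here to call a difference. Over 15 processing settings the log2 ratio ran from 0.03 to 0.39 for S100a8 and from -0.04 to 0.34 for S100a9, always under 1.5-fold. Together the pair took 36.0% of all neutrophil UMIs in PyMT and 34.5% in wild type, with 1.54 UMIs of S100a8 per UMI of S100a9 in PyMT and 1.5 in wild type. In single neutrophils, the middle 90% of cells had between 25.9% and 43.0% of their UMIs from the pair in PyMT (median 36.0%) and between 28.3% and 42.1% in wild type (median 35.7%), so the cells of the libraries overlapped almost wholly.

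**Figure D1:**
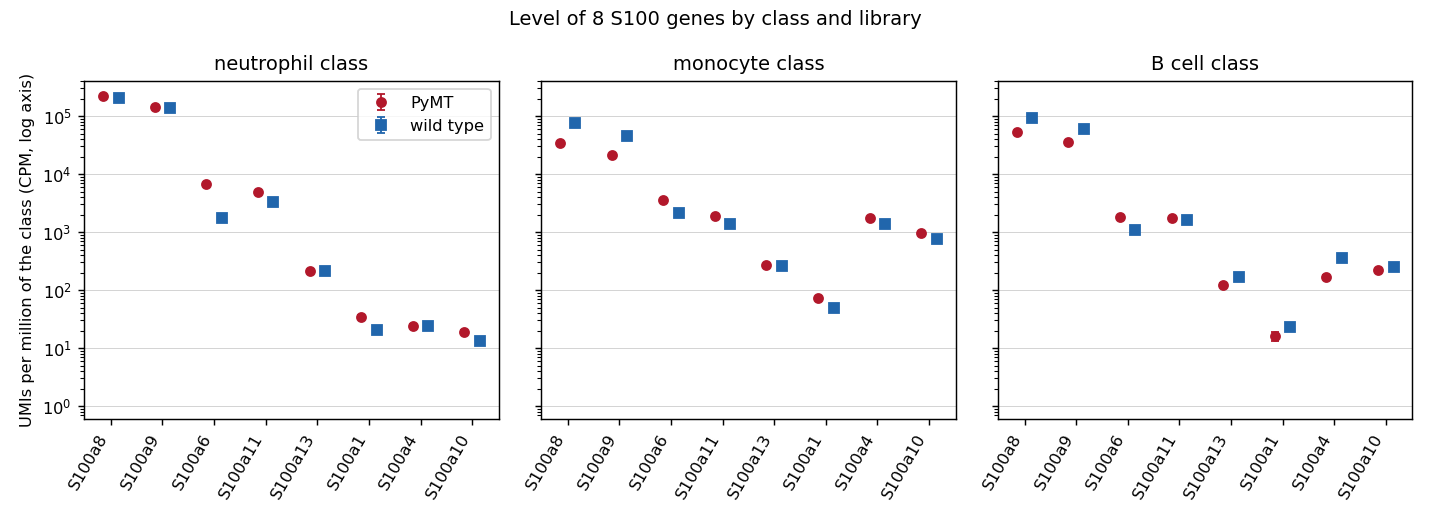
Level of the 8 S100 genes (y axis, CPM of the class, log axis) in neutrophils, monocytes and B cells of the PyMT library (red circles, left) and the wild-type library (blue squares, right); bars are exact 95% counting intervals, mostly smaller than the symbols. In neutrophils S100a8 and S100a9 lie together in both libraries, S100a6 stands at 6840.3 CPM in PyMT and 1750.2 CPM in wild type, and S100a1, S100a4 and S100a10 are lowest.

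S100a6 (calcyclin), a partner of annexins and of the ubiquitin ligase adaptor Cacybp, was the member that differed most between neutrophils of the libraries. It stood at 6840.3 CPM in PyMT neutrophils and 1750.2 CPM in wild-type neutrophils, 3.91-fold higher in PyMT (log2 ratio 1.97, exact 95% interval 1.95 to 1.98). Intervals here and elsewhere cover counting error only, and not differences between mice or between libraries. By UMIs, S100a6 ranked 14th among all genes in PyMT neutrophils and 34th in wild-type neutrophils, and 1.66% of the 8846 genes with at least 50 UMIs had a higher ratio. With S100a6, S100a1 was also past 1.5-fold, so 2 of 8 members were higher in PyMT neutrophils and 0 were lower, where 9.04% of all genes were at least 1.5-fold higher and 32.1% at least 1.5-fold lower. The median log2 ratio was 0.31 over the 8 members and -0.31 over all genes; all 8 members passed the minimum of 50 UMIs in each class.

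The S100a6 difference was spread over most neutrophils rather than held by a few. The median share of UMIs from S100a6 was 0.669% in PyMT neutrophils and 0.124% in wild-type neutrophils. Of PyMT neutrophils, 91.9% lay above the wild-type median, and of wild-type neutrophils 6.70% lay above the PyMT median. Even so the libraries overlapped in part. Above the 95th percentile of wild-type neutrophils lay 45.8% of PyMT neutrophils, and the other PyMT neutrophils lay at or below it. At least 1 UMI of S100a6 was found in 99.5% of PyMT neutrophils (median depth 8010 UMIs) and 80.7% of wild-type neutrophils (median depth 5345 UMIs), and with 1000 UMIs drawn from each cell it was found in 93.6% of PyMT and 58.7% of wild-type neutrophils. As a measure of background, B cells low in neutrophil transcripts, introduced further on, had an S100a6 UMI in 70.0% of PyMT cells and 43.0% of wild-type cells (median depths 3587 UMIs in PyMT and 4008.5 UMIs in wild type), and after thinning in 33.9% of PyMT and 24.6% of wild-type cells. The share in neutrophils was above that background in both libraries.

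**Figure D2:**
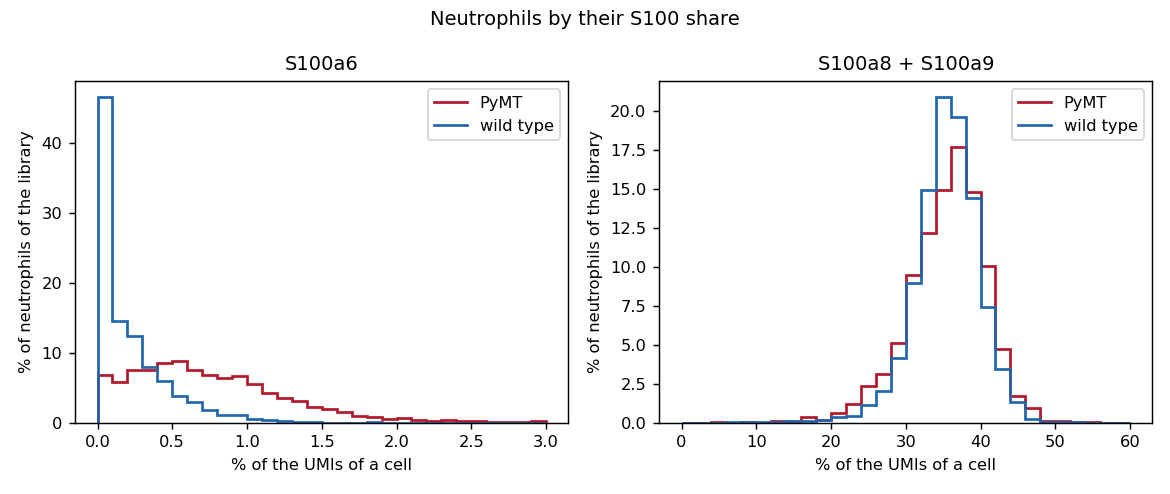
Distribution of the S100a6 share (left) and of the summed S100a8 and S100a9 share (right) over single neutrophils, as a percentage of the UMIs of a cell (x axis) against the percentage of neutrophils of the library (y axis), PyMT in red and wild type in blue. The S100a6 curves differ, with medians of 0.669% in PyMT and 0.124% in wild type, while the S100a8 and S100a9 curves lie over each other with medians of 36.0% in PyMT and 35.7% in wild type.

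Neutrophils were next divided by Camp and Ngp, granule protein genes that are highest in immature neutrophils and fall as the cells mature, with cycling cells (at least 3 UMIs of Mki67, Top2a, Birc5, Cdk1 and Ube2c) set apart. The libraries differed in this composition. Cells with 10% or more of their UMIs from Camp and Ngp made up 19.3% of PyMT neutrophils and 70.2% of wild-type neutrophils, while cells under 1% made up 25.6% of PyMT neutrophils and numbered only 12 in wild type, too few for a level. Cells under 1% entered the class only where Retnlg brought the share of Camp, Ngp and Retnlg to 1%. Retnlg stood at 15395 CPM in PyMT and 7583 CPM in wild-type neutrophils, and its part in this contrast was not tested. In each of the 4 strata with at least 50 cells in both libraries, S100a6 was past 1.5-fold higher in PyMT. In cycling cells it stood at 2638 CPM in PyMT and 536 CPM in wild type (log2 ratio 2.30). In cells with 10% or more it stood at 4906 CPM in PyMT and 1548 CPM in wild type (1.66). Toward lower Camp and Ngp the S100a6 level climbed in both libraries and the ratio narrowed. Cells with 5 to 10% had 6811 CPM in PyMT and 3633 CPM in wild type (0.91), and cells with 1 to 5% had 11326 CPM in PyMT and 6007 CPM in wild type (0.91). In PyMT cells under 1%, S100a6 stood at 9593 CPM. Of all genes in these 4 strata, in the same order, 6.26%, 5.69%, 9.47% and 18% passed 1.5-fold on the higher side in PyMT, and 25.4%, 22.9%, 21.5% and 18.2% on the lower side. Higher levels in all 4 strata were seen for 2 of 8 members, S100a6 and S100a1, and for 2.69% of the 3535 genes that could be followed through them. When PyMT cells were weighted to the strata of wild type, the S100a6 log2 ratio was 1.39. Median depths also differed within strata, at 11330.0 UMIs in PyMT and 5576.5 UMIs in wild type for cells with 10% or more; with each cell thinned to 1000 UMIs, the log2 ratio over all neutrophils was 1.84.

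**Figure D3:**
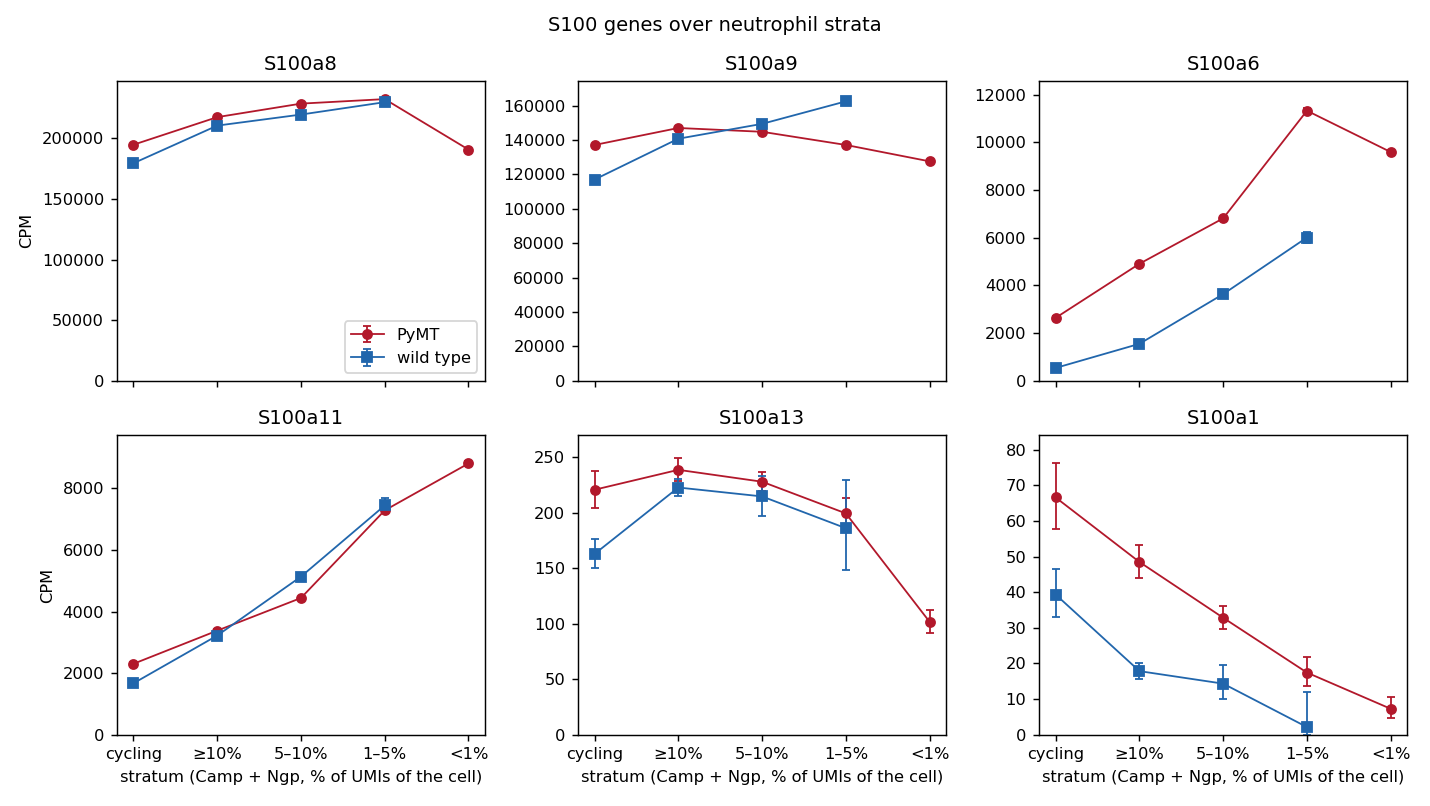
Level of 6 S100 genes (y axis, CPM, linear from 0) over neutrophil strata (x axis, cycling cells and then falling Camp and Ngp share) in PyMT (red circles) and wild type (blue squares), with exact 95% counting intervals; no wild-type point is drawn under 1% because it held 12 cells. The S100a6 lines stay apart in each of the 4 shared strata, the S100a11 lines climb together, and S100a1 falls in both libraries.

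S100a11, which binds annexins at membranes, differed more between strata than between libraries. Over all neutrophils it stood at 4849 CPM in PyMT and 3303 CPM in wild type (log2 ratio 0.55, under 1.5-fold). In cycling cells it had 2303 CPM in PyMT and 1671 CPM in wild type, and in cells with 10% or more 3379.6 CPM in PyMT and 3220.1 CPM in wild type. In cells with 1 to 5% it reached 7281 CPM in PyMT and 7440.2 CPM in wild type, and in PyMT cells under 1% it was highest, at 8803 CPM. S100a11 was past 1.5-fold in 0 of the 4 strata, with log2 ratios from -0.21 to 0.46, and its ratio over all neutrophils was 0.01 once PyMT cells were weighted to the strata of wild type and 0.86 with scaling by median of ratios. Across single neutrophils its share ran against that of Camp and Ngp, with Pearson's r of -0.70 over 3862 PyMT cells and -0.49 over 3195 wild-type cells; shares of 1 cell share a total, so these values are descriptive.

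S100a1, best known from heart muscle, ran the other way along the strata. It stood at 35.1 CPM in PyMT neutrophils and 20.7 CPM in wild-type neutrophils (log2 ratio 0.76, 95% interval 0.60 to 0.93), and under 1.5-fold (0.57) when the class rules were applied to cells thinned to 2500 UMIs. It was highest in cycling cells, at 66.6 CPM in PyMT and 39.3 CPM in wild type, and fell to 17.5 CPM in PyMT cells and 2.2 CPM in wild-type cells with 1 to 5% of Camp and Ngp; the last value rests on 1 UMI, and the log2 ratio there was 3.01 with a 95% interval of 0.49 to 8.33. A UMI of S100a1 was found in 20.2% of PyMT neutrophils and 10.2% of wild-type neutrophils, against 4.6% of PyMT and 5.3% of wild-type B cells low in neutrophil transcripts. After thinning the shares were 2.5% of PyMT and 1.3% of wild-type neutrophils, against 0.68% of PyMT and 1.4% of these wild-type B cells. The wild-type shares were thus close after thinning, where the B cell share rests on 5 of 358 cells (95% interval 0.46% to 3.23%). S100a13, which takes part in the export of proteins without a signal peptide, was level between libraries at 211.5 CPM in PyMT neutrophils and 210.9 CPM in wild-type neutrophils. Over the neutrophil strata S100a13 differed by at most 0.44 on the log2 scale where S100a1 differed by 0.76 to 3.01. S100a13 itself spanned 2.35-fold from its lowest to its highest stratum in PyMT and 1.37-fold in wild type. The PyMT span took in the cells under 1%, which have no wild-type level and where S100a13 was lowest, at 101.8 CPM. Over the 4 shared strata it ran from 199.5 to 238.8 CPM in PyMT and from 163.0 to 222.9 CPM in wild type. S100a8 spanned 1.22-fold over the strata of PyMT and 1.28-fold over those of wild type. S100a9 spanned 1.15-fold in PyMT and 1.39-fold in wild type. The lowest PyMT values of S100a8 and S100a9 were also in the cells under 1%.

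Among PyMT neutrophils, a split by Wfdc17, a whey acidic protein family gene, chosen after its values were seen, gave a similar picture for S100a6. Wfdc17 made up 1% or more of the UMIs in 1082 PyMT neutrophils and in 0 wild-type neutrophils. S100a6 stood at 9497 CPM in these PyMT cells and at 6392 CPM in the 2731 PyMT cells with a share above 0 and under 1%, against 2124 CPM in the 160 wild-type neutrophils of that same range (log2 ratio 1.59) and 1723 CPM in the 3035 wild-type neutrophils with no Wfdc17 UMI. Both PyMT values lay above both wild-type values. S100a11 was 8304 CPM in PyMT cells with 1% or more and 4252 CPM in PyMT cells above 0 and under 1%, against 3019 CPM in wild-type cells of that range and 3324 CPM in wild-type cells without it.

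S100a4 (metastasin), which binds non-muscle myosin, and S100a10, the annexin A2 partner that brings plasminogen to the cell surface, were far higher in monocytes than in neutrophils. S100a4 stood at 1749 CPM in PyMT monocytes and 1401 CPM in wild-type monocytes (log2 ratio 0.32), against 24.2 CPM in PyMT and 24.4 CPM in wild-type neutrophils. S100a10 stood at 976 CPM in PyMT monocytes and 767 CPM in wild-type monocytes (0.35), against 19.2 CPM in PyMT and 13.2 CPM in wild-type neutrophils. The direction in monocytes turned when cells with at least 0.5% of their UMIs from Camp, Ngp and Retnlg were left out. S100a4 then stood at 2008 CPM in PyMT and 2343 CPM in wild type (-0.22), and S100a10 at 1129.6 CPM in PyMT and 1401 CPM in wild type (-0.31). A UMI of S100a4 was found in 99.0% of PyMT and 99.5% of wild-type monocytes (median depths 7609 UMIs in PyMT and 7504 UMIs in wild type), against 17.6% of PyMT and 9.5% of wild-type neutrophils. After thinning it was found in 80.9% of PyMT and 74.3% of wild-type monocytes, against 2.3% of neutrophils in either library. The ratios of both genes in neutrophils depended on the class rule. With cells that carry a Csf1r, Ccr2 or Cd79a UMI counted in, the log2 ratio was -1.08 for S100a4, against -0.01 without them, and -0.50 for S100a10, against 0.54 without them. The ratios also differed between the 4 neutrophil strata. S100a4 was past 1.5-fold higher in 0 and lower in 1, and S100a10 higher in 1 and lower in 1. In cells with 5 to 10% of Camp and Ngp, S100a4 stood at 22.1 CPM in PyMT and 64.9 CPM in wild type (-1.55). S100a10 had a log2 ratio of -0.63 in these cells, where 21.5% of all genes were lower. In cycling cells it was 0.75, where 6.26% of all genes were higher. Both genes also had lower levels in the PyMT B cell class. S100a4 was at 171 CPM in PyMT and 363 CPM in wild type (-1.08), and S100a10 at 219 CPM in PyMT and 251 CPM in wild type (-0.20). This class also held monocyte markers, at a summed 1204 CPM in PyMT and 1604 CPM in wild type. Their part in these ratios was not tested. Among B cells under 0.5% of Camp, Ngp and Retnlg, an S100a4 UMI was found in 13.9% of PyMT and 25.1% of wild-type cells.

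In monocytes and B cells as classed, S100a8 and S100a9 were lower in PyMT. S100a8 stood at 34557 CPM in PyMT monocytes and 75051 CPM in wild-type monocytes (log2 ratio -1.12), and S100a9 at 21021 CPM in PyMT and 46042 CPM in wild type (-1.13). In B cells S100a8 stood at 53618.5 CPM in PyMT and 93013.5 CPM in wild type (-0.79), and S100a9 at 35176 CPM in PyMT and 59182 CPM in wild type (-0.75). In monocytes 1 of 8 members was higher in PyMT (S100a6, 3589.8 CPM in PyMT and 2131 CPM in wild type) and 2 were lower, beside 12.4% of all genes higher and 10.1% lower. In B cells 1 member was higher (S100a6) and 3 were lower (S100a8, S100a9 and S100a4), beside 19.6% of all genes higher and 11.1% lower. A list of 7 erythroid markers summed to 1584 CPM in PyMT B cells and 27.5 CPM in wild-type B cells, and its part in the B cell ratios was not tested.

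These ratios moved with neutrophil transcripts in the same cells. Camp, Ngp and Retnlg made up at least 0.5% of the UMIs in 308 of 1677 PyMT monocytes and 385 of 853 wild-type monocytes, and in 464 of 1493 PyMT B cells and 372 of 730 wild-type B cells. In those monocytes S100a8 was at 102708 CPM in PyMT and 109890.0 CPM in wild type. Without them the direction turned. In monocytes under 0.5%, S100a8 was at 8959 CPM in PyMT and 4965 CPM in wild type (log2 ratio 0.85) and S100a9 at 6872 CPM in PyMT and 3622 CPM in wild type (0.92). In B cells under 0.5%, S100a8 was at 10089.9 CPM in PyMT and 5227 CPM in wild type (0.95) and S100a9 at 8132 CPM in PyMT and 4009 CPM in wild type (1.02). Among these low monocytes 3 members were higher in PyMT (S100a8, S100a9 and S100a11) and 0 lower, beside 8.57% of all genes higher and 7.81% lower, and among the low B cells 2 were higher (S100a8 and S100a9) and 2 lower (S100a4 and S100a10), beside 9.6% higher and 6.86% lower. S100a6, higher in PyMT in both whole classes, was at 3227 CPM in PyMT and 2962 CPM in wild type in the low monocytes and at 636 CPM in PyMT and 777 CPM in wild type in the low B cells. The 0.5% cut rests on genes that differed between neutrophils of the libraries. Camp stood at 32860 CPM in PyMT and 71548 CPM in wild-type neutrophils, Ngp at 42161 CPM in PyMT and 51684 CPM in wild type. Retnlg stood at 15395 CPM in PyMT and 7583 CPM in wild type. In low monocytes the 95th percentile of the S100a8 share was 1.93% in PyMT and 0.64% in wild type. The part of the cut in the ratios of the low cells was not tested.

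S100a8 was found in every cell of the low classes, and its median share was close across lineages of a library. Its median share of the UMIs of a cell was 0.731% in PyMT and 0.424% in wild-type low monocytes, 0.780% in PyMT and 0.433% in wild-type low B cells, and 0.740% in PyMT and 0.429% in wild-type T cells (148 PyMT and 55 wild-type cells with at least 2 UMIs of Cd3e and Cd3g, outside the other classes). Summed levels were less even, since S100a8 in T cells stood at 28036 CPM in PyMT and 20029 CPM in wild type, 12.8% of the neutrophil level in PyMT and 9.7% in wild type. S100a9 medians were also close, at 0.555%, 0.601% and 0.567% in PyMT low monocytes, low B cells and T cells, and at 0.318%, 0.343% and 0.303% in the same wild-type cells. In low B cells the level as a percentage of that in neutrophils of the same library was 4.6% in PyMT and 2.5% in wild type for S100a8, beside 4.3% in PyMT and 2.6% in wild type for Lcn2 and 3.3% in PyMT and 2.0% in wild type for Camp, by which these cells were chosen. Over 14 neutrophil markers this percentage had a median of 6.07% in PyMT (range 2.15% to 42.4%) and 3.46% in wild type (range 2.27% to 59.2%). The part of free RNA in the S100a8 and S100a9 levels of these cells was not tested. S100a6 had a median share of 0.320% in PyMT and 0.280% in wild-type low monocytes against 0.030% in PyMT and 0 in wild-type low B cells.

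**Figure D4:**
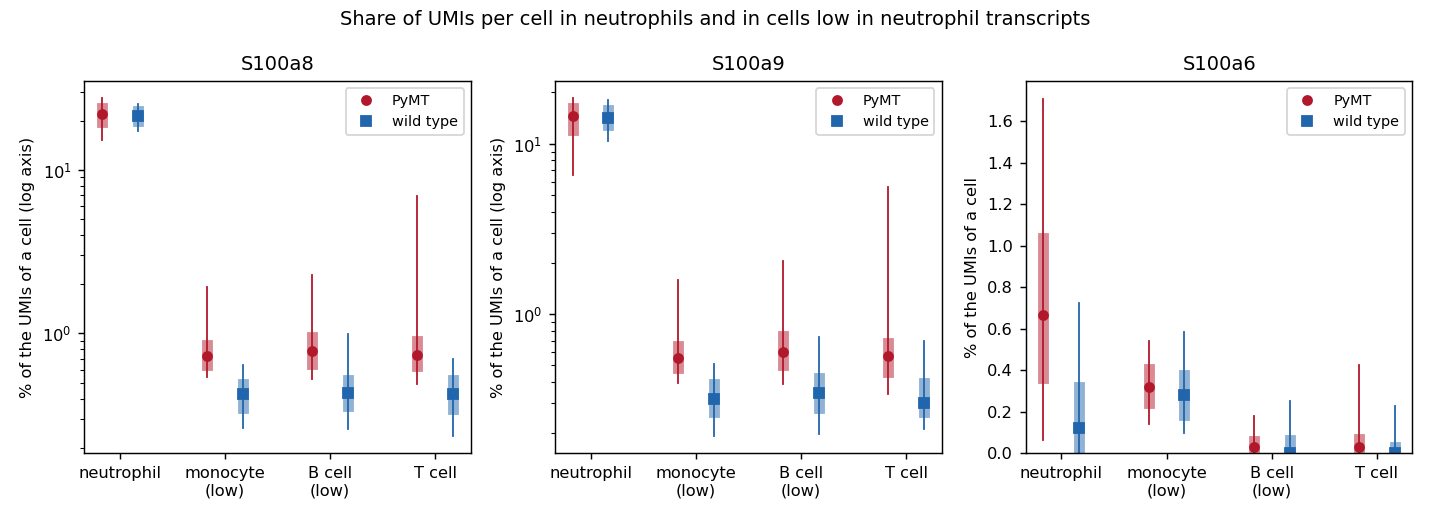
Share of the UMIs of a cell from S100a8, S100a9 (log axes) and S100a6 (linear axis) in neutrophils, in monocytes and B cells with under 0.5% of UMIs from Camp, Ngp and Retnlg, and in T cells, PyMT in red on the left of each pair and wild type in blue; symbols are medians, thick bars the middle 50% and thin bars the middle 90% of cells. S100a8 has nearly 1 median in the 3 cell types outside neutrophils, from 0.731% to 0.780% in PyMT and from 0.424% to 0.433% in wild type, whereas S100a6 is higher in monocytes than in B or T cells.

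Genes that act with the S100 proteins were followed in 3 lists. Of 18 binding partners, 14 had at least 50 UMIs in neutrophils, of which 4 were higher and 2 lower in PyMT (median log2 ratio -0.01, all genes -0.31), beside 9.04% of all genes higher and 32.1% lower. Anxa2, the annexin that S100a10 and S100a6 bind, was at 903 CPM in PyMT and 417 CPM in wild-type neutrophils (1.11), Casp1, the inflammasome protease, had a log2 ratio of 0.99, Anxa11 of 0.84, and Trp53, the p53 gene, was lower in PyMT (-1.23). Of 11 receptors and signalling partners named for released S100a8 and S100a9, 10 had 50 UMIs and 6 were higher and 1 lower in PyMT (median 0.66). These included the receptor Tlr4 (1.24), its co-receptor Ly96 (1.03) and its adaptor Myd88, at 103 CPM in PyMT and 34.5 CPM in wild type (1.58), as well as the scavenger receptor family gene Cd68, at 37.4 CPM in PyMT and 7.90 CPM in wild type (2.24). The 6 include Ager, the RAGE gene, at 1.29 CPM in PyMT and 0.81 CPM in wild type, whose interval crossed 0 (log2 ratio 0.66, 95% interval -0.18 to 1.57). Of 10 transcription factors with a row, 4 were higher and 3 lower (median 0.41), among them Irf7 (1.30) and Cebpb, at 795 CPM in PyMT and 355 CPM in wild type (1.16), on the higher side, and the granulocyte factors Gfi1 (-1.07) and Cebpa (-0.71) on the lower side. With PyMT cells weighted to the strata of wild type, 8 list genes were higher in neutrophils, against 14 without weighting. In monocytes, where 12.4% of all genes were higher and 10.1% lower, the same lists had 0 higher and 0 lower among 14 partners, 2 and 1 among 10 receptors, and 0 and 2 among 10 factors. Here the largest were Myd88 (0.77) and Ly96 (0.76) on the higher side and Gfi1 (-2.76), Cd36 (-2.62) and Cebpe (-2.05) on the lower side. In B cells, where 19.6% of all genes were higher and 11.1% lower, the counts were 1 higher and 3 lower of 14 partners, 3 and 0 of 10 receptors, and 2 and 4 of 10 factors.

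The members fell into groups by likeness of their level over 21 points, which were the strata and classes of both libraries. Likeness was Pearson's r of log2(CPM + 10) among 3626 genes, and points of 1 library share its depth and its background. S100a8 and S100a9 were closest to each other (0.999), followed by Wfdc21 for both. These points span neutrophils and cells of other classes. Across single neutrophils the shares of S100a8 and S100a9 had an r of -0.04 over 3862 PyMT cells and 0.54 over 3195 wild-type cells. S100a4 was closest to Ahnak (0.990), Tmem176a and the chemokine receptor gene Ccr2. Ccr2 is itself a gene of the class rules, absent from neutrophils and counted toward monocytes, so its likeness was partly fixed by these rules. S100a10 was closest to Ms4a6b (0.990), Itgb7 and Gm9844, with S100a4 and S100a10 at 0.91 to each other. S100a6 was closest to Slfn1 (0.934), Slfn2 and Anxa2 (0.931), and S100a11 to Dhrs7 (0.982), Fpr1 and Pilra, with 0.82 between S100a6 and S100a11. S100a1 was closest to Tmem256 (0.952), Ptgr1 and Med8. S100a13 had the weakest match of the 8, with Emp3 at 0.824, then Trappc4 and Tmem165.

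Other rows with S100 symbols were sparse. In all cells S100a7a was at 2.42 CPM in PyMT and 1.46 CPM in wild type, S100a3 at 0.84 CPM in PyMT and 1.06 CPM in wild type, and S100a2 at 0.75 CPM in PyMT and 1.39 CPM in wild type. S100pbp, which encodes an S100P-binding protein and no S100 protein, was at 2.81 CPM in PyMT and 2.44 CPM in wild type. S100g and S100z had 0 UMIs in both libraries.

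**Figure D5:**
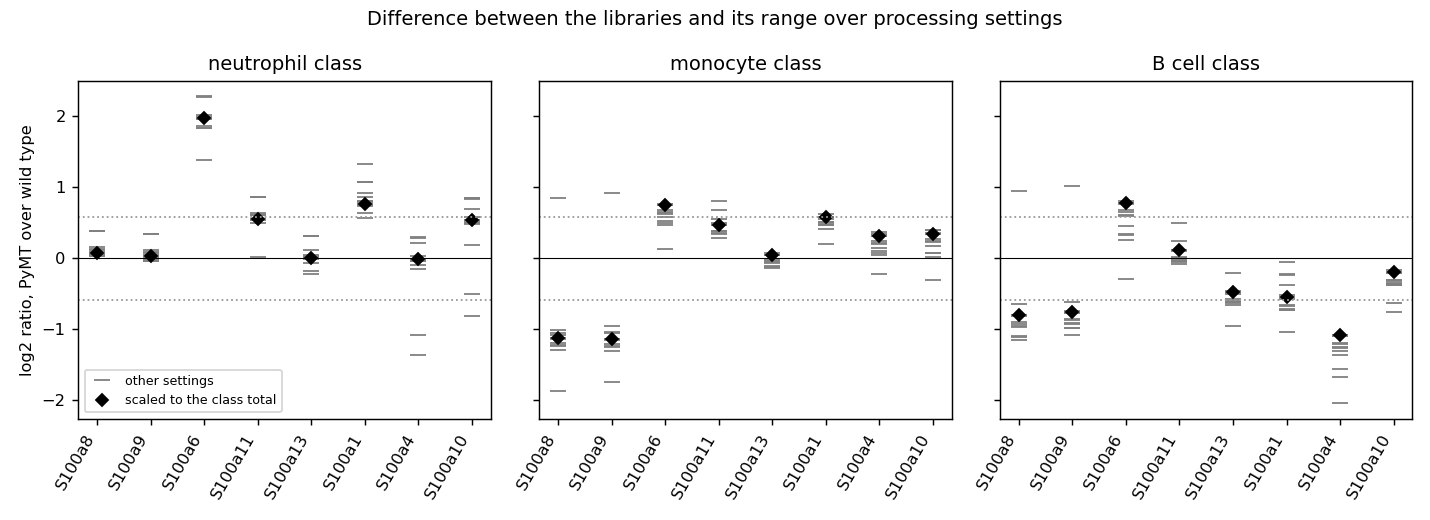
Log2 ratio of PyMT over wild type (y axis) of the 8 S100 genes in each class, as scaled to the class total (black diamonds) and under the other processing settings (grey dashes); dotted lines mark 1.5-fold. S100a6 in neutrophils stays between 1.39 and 2.28, while S100a8 and S100a9 in monocytes and B cells lie below 0 except in the setting that leaves out cells with neutrophil transcripts, at 0.85 to 1.02.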

How the data were processed

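The deposited files hold raw counts of UMIs per gene and cell. Per the labels' protocols, cells were loaded on the 10x Genomics Chromium platform with 3′ version 2 reagents and sequenced to an average of 48488 reads per cell, and per the submitters' processing notes reads went through Cell Ranger 2.1.0 on mm10. The criteria by which cells were chosen before deposit are not given in the sources used here; in PyMT the lowest cell held 2502 UMIs and in wild type 2752. A minimum of 200 detected genes and a maximum of 10% mitochondrial UMIs left 9150 PyMT and 5491 wild-type cells, and 4 PyMT and 6 wild-type cells that met several class rules were left out. For each class of a library the counts were added up and divided by the class total (CPM), with exact Poisson intervals for levels, exact conditional binomial intervals for ratios and exact Clopper-Pearson intervals for shares, all at 95% and for counting error only. A difference was called at 1.5-fold among genes with at least 50 UMIs summed over both libraries. No p-value was computed. The scripts were tested on simulated data. Python 3.11.15, numpy 2.4.6, scipy 1.17.1, pandas 2.3.3, scikit-learn 1.9.0 and matplotlib 3.10.9 were used.

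Doublets were kept; as an alternative, the cells nearest to simulated doublets, 671 in PyMT and 241 in wild type, were left out. Near the neutrophil threshold, 79 PyMT and 0 wild-type cells had 0.8 to 1.2% of UMIs from Camp, Ngp and Retnlg. The genes named are the 8 members, other S100 rows with at least 50 UMIs, up to 4 genes of each list with the largest ratio and the 3 genes most like each member. In the monocyte and B cell classes, list genes are named only in part. The members and lists were chosen with earlier results of these data known. The Wfdc17 split and the counting-in of cells with a Csf1r, Ccr2 or Cd79a UMI were chosen after seeing the data. Cebpd was not analysed here. Alternatives were other scalings (trimmed mean of M-values, median of ratios, totals without the 50 most abundant genes or without the S100 family, equal weight per cell), thinning, other cell filters, other class rules and weighting to the wild-type strata.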

Additional observations from a re-analysis of the deposited data

How the results depend on the processing

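Each difference rests on 1 library per group. No paired analysis was possible because each group is 1 library and the results come from no test. Over 15 settings the S100a6 log2 ratio in neutrophils ran from 1.39 to 2.28, and S100a11 from 0.01 to 0.86. With cells of at least 0.5% Camp, Ngp and Retnlg left out, the log2 ratio turned to 0.85 (S100a8) and 0.92 (S100a9) in monocytes and to 0.95 (S100a8), 1.02 (S100a9) and -0.29 (S100a6) in B cells. Members at least 1.5-fold higher in neutrophils numbered 4, not 2, by trimmed mean of M-values, median of ratios, the total without the S100 family, equal weight per cell and thinning to 1000 UMIs; these first 2 scalings move the median of all genes from -0.31 to -0.01 and 0.00. Members lower in neutrophils numbered 2 with class rules applied after thinning to 2500 UMIs and 1 with cells carrying a Csf1r, Ccr2 or Cd79a UMI counted in. In monocytes, members higher numbered 0 without the 50 most abundant genes in the total, with equal weight and thinned, 2 without doublets and 3 without the 0.5% cells, which also left 0 lower. In B cells, members higher numbered 0 with equal weight, thinned, without doublets and with rules at 2500 UMIs, and 2 without the 0.5% cells; members lower numbered 5 by both scalings, without the 50 genes and without doublets. Genes of the 3 lists lower in neutrophils numbered 6, but 2 by both scalings and 10 with rules at 2500 UMIs, and those higher 14, but 8 with PyMT cells weighted to the wild-type strata. In monocytes list genes lower numbered 3, but 5 by both scalings and without the 50 genes or the S100 family in the total, and those higher 2, but 1 without the 50 genes and thinned. In B cells list genes higher numbered 6, but 3 by both scalings, without the 50 genes or the S100 family, thinned and without the 0.5% cells. The neutrophil share was 43.7% in PyMT without doublets, 53.0% in PyMT and 67.4% in wild type with rules at 2500 UMIs, and 40.3% in PyMT with stricter thresholds. The monocyte share was 12.3% in PyMT and 7.32% in wild type with rules at 2500 UMIs and 16.3% in PyMT and 12.1% in wild type with stricter thresholds; the B cell share was 14.6% in PyMT and 7.99% in wild type with rules at 2500 UMIs and 12.0% in wild type with stricter thresholds. The cause of these shifts was not tested.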
